A study of Mus musculus with 36 samples.

Results

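The cytosolic ribosomal proteins are the proteins that, with the ribosomal RNAs, make up the large and the small subunit of the ribosome outside mitochondria. Their genes were taken from the gene-level count table by symbol: protein-coding genes named Rpl or Rps with a number, plus Rpsa, Rplp0, Rplp1 and Rplp2, leaving out the Rps6 kinases and symbols that mark pseudogenes. The rule found 86 of 54347 genes, of which 52 were named for the large and 34 for the small subunit. The table held primary mouse cells in 36 libraries, 3 for each of 4 cell types with each of 3 treatments. Adipocytes were differentiated from the stromal fraction of inguinal fat pooled from male C57Bl/6 mice, macrophages from bone marrow and myotubes (the myocytes of the study) from skeletal muscle of mice of that strain, and hepatocytes were isolated from C57BL/6NHsd mice by collagenase perfusion. Each cell type was kept for 6 h with phosphate-buffered saline (control), with 5 mM of the ketone body β-hydroxybutyrate (βOHB, as the sodium salt of the R form) or with 5 mM sodium butyrate. The source name of the butyrate samples puts bOHB in brackets after butyric acid, while their titles and treatment entries give butyrate, which was followed here. No group carried a genetic change. The comparisons asked what each compound did to the transcripts of ribosomal proteins in each cell type, and whether the answer held under another scaling of the libraries. Membership went by symbol alone, but the family as a whole was chosen by its fold changes with butyrate, already known from these libraries, and part of the members named below were picked by p or after their values were seen, so counts and medians over it are a description without a test.

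Each ribosome holds one copy of most of these proteins, so cells make them in near-equal amounts from mRNAs that are among the most abundant of the cell. Most of these mRNAs begin with a C followed by a run of pyrimidines, the 5′ terminal oligopyrimidine or TOP sequence, through which growth signals passing mTORC1 and the repressor Larp1 set how well they are translated. Butyrate, a product of bacterial fermentation in the gut, blocks histone deacetylases, and βOHB is the same acid with a hydroxyl group on the beta carbon.

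The starts of 5 mRNAs that were lower with butyrate in all 4 cell types are shown because they carry the sequence this gene family is known for. They are the first bases of an annotated transcript (GENCODE M21, GRCm38), read 5′ to 3′ on the strand of the gene, with the opening run of C and T in capitals.
Rpl10 (chrX:74270857-74270878, plus strand): CTCTTTTCCTCTggcgcggtga
Rpl13a (chr7:45128708-45128737, minus strand): CCTTTCCCaggcggctgccgaagatggcgg
Rpl30 (chr15:34443193-34443222, minus strand): CCTTTCTCgctccccggccatcttggcggc
Rpl4 (chr9:64173375-64173404, plus strand): CTTTTCCTgtgggagcagccgggtagagag
Rps9 (chr7:3704038-3704064, plus strand): CTCTTTgtctcgggcctgagttcgtag

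An annotated transcript start of C with at least 5 pyrimidines in a row was found for 23 of 84 tested members (27.4%), for 5 of 78 mitochondrial ribosomal proteins (6.4%) and for 825 of 14136 tested genes with a protein-coding transcript (5.8%). Annotated starts need not be the base where transcription begins. Rplp1, a protein of the ribosomal stalk, is shown as a member that fell in all 4 cell types and is not among the 23, since its annotated transcript opens before its run of pyrimidines.
Rplp1 (chr9:61914513-61914542, minus strand): gatcttttcctcagctgccgccaaggtgct

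Library totals ran from 18366289 to 23221473 estimated counts with a median of 22177562. Of the 86 genes, 84 passed the filter of more than 1 CPM in at least 6 libraries, where CPM is the count of a gene per megaread of its library. Rpl10l, a retrocopy of Rpl10 known from testis, had no counts, and Rpl3l, a form of Rpl3 found in striated muscle, lay between 0.268 and 1.24 CPM in the 9 myotube libraries. Of the 86, 9 are paralogues, retrocopies or other genes outside the 77 standard ribosomal proteins, and one of these, Rps19bp1, encodes a protein that binds Rps19 and Sirt1. The labelled cell types carried their markers: control sums were 7898 to 8588 CPM over 6 adipocyte genes, 17320 to 17500 over 7 macrophage genes, 20910 to 25700 over 7 myotube genes and 39460 to 42750 over 7 hepatocyte genes. Sums over 4 fibroblast genes were 5753 to 6721 CPM in control adipocytes and 2329 to 2450 CPM in control macrophages. They were 1288 to 1536 CPM in control myotubes and 17.5 to 21.7 CPM in control hepatocytes. Where nothing states that the 3 libraries of a group came from separate cultures or animals, a p-value measures only the spread between those libraries. In bulk RNA, fewer transcripts per cell and fewer cells of a type cannot be told apart.

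Butyrate was followed by slightly lower ribosomal protein transcripts in all 4 cell types when libraries were scaled by TMM factors (lowest median in hepatocytes, -0.23, or -0.16 without control replicate 1); in macrophages the sign of the median turned when library totals alone were used. Counts of members below are those past an adjusted p of 0.05 in edgeR's quasi-likelihood test over 15340 genes, and fold changes are log2 values of butyrate over control, 3 libraries each. In adipocytes 35 of 84 members fell and 0 rose, where 30.3% of all tested genes fell and 30.7% rose. In macrophages 26 fell and 1 rose (Rps19bp1), against 33.2% and 31.9% of all genes. In myotubes 38 fell and 0 rose, against 33.4% and 33.1%. In hepatocytes 59 fell and 0 rose, against 32.4% and 31%. The share of members that fell was thus near the background in macrophages (31%), above it in adipocytes (41.7%) and myotubes (45.2%), and about 70.2% in hepatocytes, while the share that rose was far under it in each cell type.

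The shifts were small and narrow. The median log2 fold change of the 84 members was -0.16 in adipocytes (0.896-fold), -0.13 in macrophages (0.912-fold), -0.15 in myotubes (0.899-fold) and -0.23 in hepatocytes (0.854-fold), where the median of all tested genes was 0, 0, 0 and -0.008. Members below 0 numbered 79, 74, 76 and 83 of 84 in that order, against 49.5%, 48.8%, 49.9% and 50.4% of all genes. The middle 50% of the members lay between -0.30 and -0.17 in hepatocytes, where the middle 50% of all genes lay between -0.53 and 0.56. The 50 tested proteins of the large subunit gave 20, 16, 22 and 36 that fell in adipocytes, macrophages, myotubes and hepatocytes, and the 34 of the small subunit gave 15, 10, 16 and 23.

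**Figure D1:**
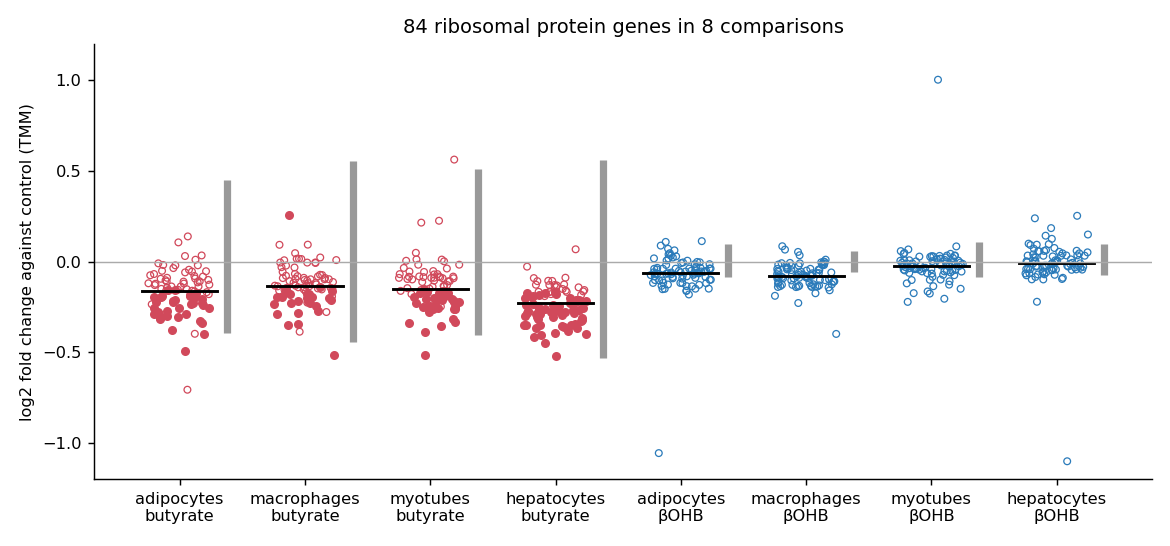
Log2 fold change of each of the 84 tested ribosomal protein genes (points) with butyrate and with βOHB against control in the 4 cell types, under TMM scaling; filled points passed an adjusted p of 0.05, the black line is the median of the members and the grey bar the middle 50% of all tested genes. Rpl39l with βOHB in hepatocytes, counted in 1 of those 6 libraries, is drawn at the lower edge and carries no meaningful fold. Butyrate medians lie between -0.13 and -0.23 and none of the βOHB points is filled.

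Single libraries showed the same shift with different steadiness. The median log2 level of the members, set against the mean of the 3 controls of each gene, was -0.20, -0.11 and -0.17 in the 3 butyrate libraries of adipocytes and -0.01, 0.02 and -0.01 in their controls. In macrophages it was -0.13, -0.21 and -0.07 with butyrate against 0.01, -0.03 and 0.02 in controls. In both of these cell types every butyrate library lay below every control. In myotubes it was -0.19, -0.21 and -0.05 with butyrate against 0.01, 0.05 and -0.06 in controls, so that the third butyrate library lay among the controls. That library stood apart from its group: the chi-square per gene, which sets the difference of 2 libraries against counting noise, was 42.39 and 37.46 against the other 2 libraries and 8.762 between those 2, its 7 myotube markers summed to 14070 CPM (19080 and 18540 CPM in the others) and its 4 fibroblast markers to 1895 CPM (1318 and 1358 CPM). Without it 47 members fell, with a median of -0.20, where 32.9% of all genes fell. The part of these differences in the ribosomal protein values was not tested. In hepatocytes it was -0.22, -0.22 and -0.27 with butyrate against 0.12, -0.03 and -0.10 in controls, whose first library stood above the other two.

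**Figure D2:**
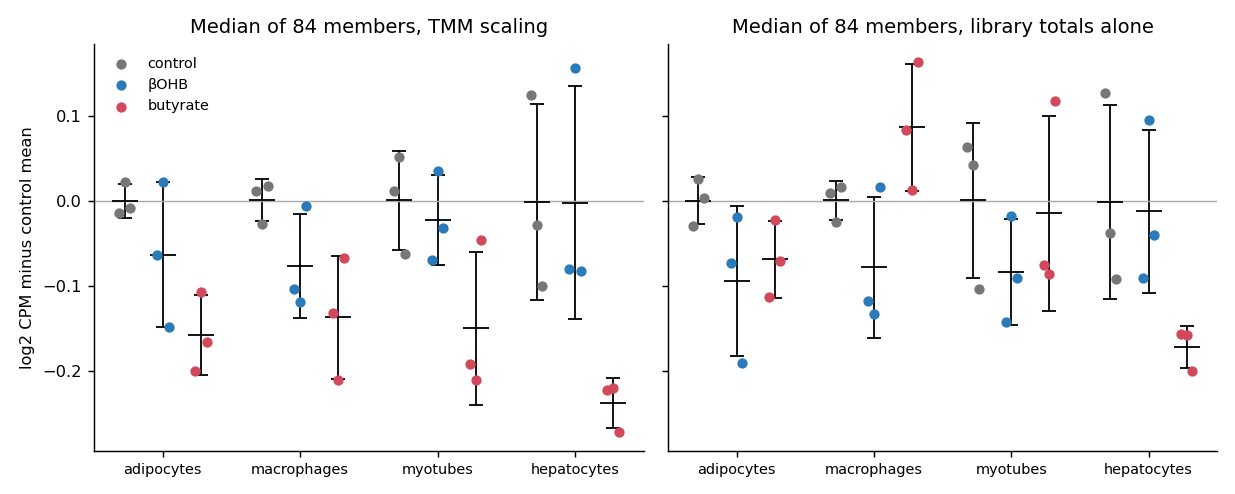
Median over the 84 tested ribosomal protein genes of log2 CPM minus the control mean of the gene, per library (points; bars: mean and SD, n = 3), with TMM scaling (left) and library totals alone (right). On the left butyrate libraries lie below controls in adipocytes, macrophages and hepatocytes, while myotube butyrate replicate 3 (-0.05) lies inside the control range; on the right macrophage butyrate libraries stand at 0.01 to 0.16.

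Leaving out 1 library moved the number of fallen members by over 1.5 times in 3 cell types. In macrophages the 26 became 16 without control replicate 1 or control replicate 3, 11 without butyrate replicate 1 and 8 without butyrate replicate 2, where 29.8% to 31.8% of all genes fell in the 6 fits (33.2% with all libraries). In myotubes the 38 became 20 without control replicate 2, 22 without butyrate replicate 1 and 18 without butyrate replicate 2, with 31.1% to 32.9% of all genes over the 6 fits. In hepatocytes the 59 became 38 without control replicate 1 (30.8% of all genes). In adipocytes the 35 became 25 to 30, with 27.8% to 28.6% of all genes. The median stayed below 0 in all of these fits. For the members named below, 669 of 786 values with 1 library left out stayed on their side of the threshold, called or not, 107 lost a call, 9 gained one and 1 changed sign.

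The number of fallen members depended on the scaling. TMM factors correct a library's total for the genes that take a large share of it, and they were 1.185 to 1.197 in butyrate-treated macrophages against 1.019 to 1.021 in their controls, and 1.11 to 1.148 against 0.994 to 1.06 in myotubes. With library totals alone, 12, 1, 2 and 38 members fell and 1, 16, 3 and 0 rose in adipocytes, macrophages, myotubes and hepatocytes. Of all genes 24.8%, 21.8%, 25.3% and 29.2% then fell and 35.2%, 43.5%, 40.8% and 33.8% rose. The members' medians were -0.07, 0.09, -0.02 and -0.16, and those of all genes 0.07, 0.20, 0.13 and 0.01. Relative to the median of all genes the members were lower by either scaling: by -0.16, -0.13, -0.15 and -0.22 with TMM factors, and by -0.14, -0.11, -0.15 and -0.17 with totals alone. A change of scaling shifts all genes of a library by about the same amount. This difference could therefore hardly change, and its agreement between scalings is no separate support. RLE size factors gave 30, 18, 27 and 56 fallen members, where 29.2%, 32%, 31.4% and 31.8% of all genes fell. Upper quartile scaling gave 24, 4, 27 and 41 (27.8%, 27.1%, 31.7% and 30.1% of all genes). TMM factors computed without the members gave 34, 27, 40 and 58 (30.1%, 33.3%, 33.7% and 32.1%).

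**Figure D3:**
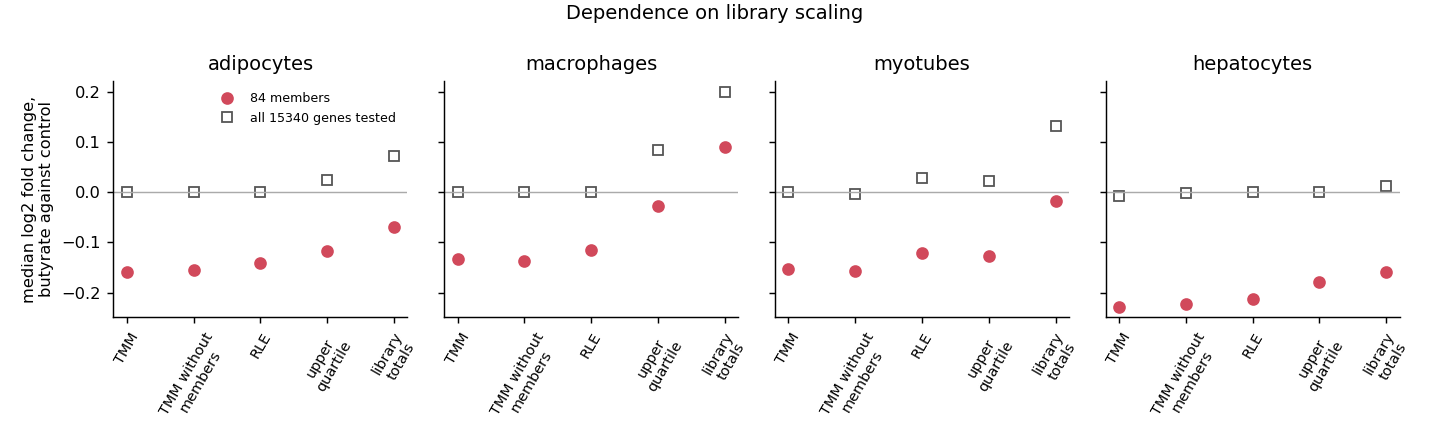
Median log2 fold change of the 84 ribosomal protein genes (filled circles) and of all tested genes (open squares) with butyrate, under 5 scalings of the libraries in the 4 cell types. With totals alone the macrophage median of the members is 0.09 and that of all genes 0.20, and the members lie below all genes under each scaling shown. A change of scaling moves members and all genes about alike, so the distance between them could hardly change.

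The share of all counts that fell on the 86 genes needs no scaling factor, but it is taken from the library total. The share thus moves with all other genes and rests on the same totals as the scaling by totals alone. In hepatocytes it was 3.76% ± 0.286 (SD, n = 3) in controls and 3.31% ± 0.0626 with butyrate, without overlap of the libraries. In macrophages it went the other way, from 2.42% ± 0.028 to 2.59% ± 0.139. Here too the libraries did not overlap. Adipocytes (2.28% ± 0.037 and 2.19% ± 0.0675) and myotubes (2.15% ± 0.125 and 2.16% ± 0.187) overlapped. With βOHB the share was 2.15%, 2.32%, 2.03% and 3.7% in adipocytes, macrophages, myotubes and hepatocytes. No test is given for these shares, since the family was taken up for its change.

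**Figure D4:**
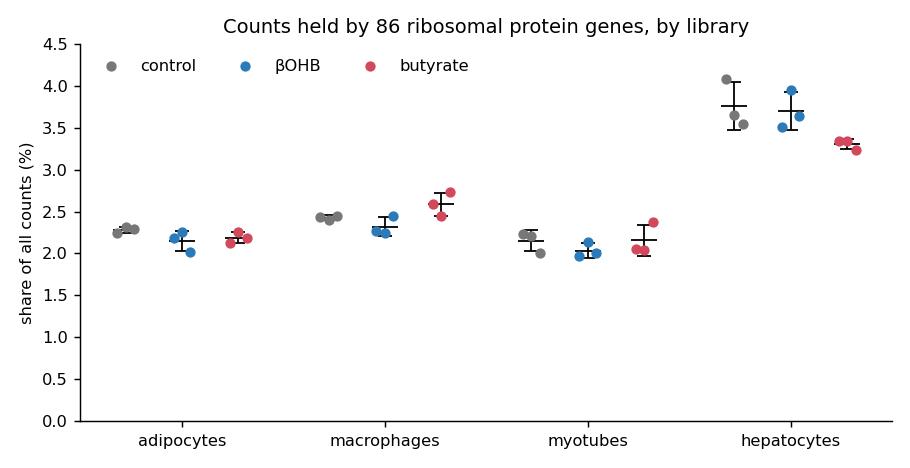
Percent of all counts of a library that fell on the 86 ribosomal protein genes (points; bars: mean and SD, n = 3) for control, βOHB and butyrate in each cell type. Hepatocytes hold the highest share, 3.76% in controls and 3.31% with butyrate, and macrophages move from 2.42% to 2.59%.

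Of the 84 tested members, 14 fell in all 4 cell types (16.7%, where 12.7% of all tested genes did), 16 in 3, 12 in 2, 30 in 1 and 12 in none. At least 1 fall was seen for 72 members (85.7%) and for 57.9% of all genes. Among the 14 were Rpl4, Rpl10, Rpl13a, Rpl30, Rpl36al, Rplp1, Rps3a1, Rps4x, Rps9, Rps23 and Rps27l, a list formed after their values were seen. With library totals alone none of the members fell in all 4, where 8.2% of all genes did. RLE factors left 9 members (11.8% of all genes), upper quartile scaling 3 (10.6%) and DESeq2 11 (11.9%). With limma-voom it was 19 members, which held all 14, and 12.8% of all genes.

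Among large subunit proteins, Rpl10 had the lowest macrophage, myotube and hepatocyte p of all members. It is one of the last proteins to join the large subunit, in the cytoplasm. In hepatocytes its level was 233, 235 and 203 CPM in controls and 141, 172 and 155 CPM with butyrate (log2 -0.52, SE 0.0853, edgeR adjusted p = 3.79e-06). In macrophages it was 117, 128 and 141 CPM in controls and 89.5, 87.4 and 92.9 CPM with butyrate (log2 -0.51, SE 0.0861, edgeR adjusted p = 4.96e-06). Myotubes gave 87, 70.5 and 74.3 CPM in controls and 50.9, 49.8 and 61.7 CPM with butyrate (log2 -0.51), and adipocytes 110, 115 and 120 CPM and 94.6, 93.9 and 101 CPM (log2 -0.25). Control and butyrate libraries did not overlap in any cell type. Most reads that could come from Rpl10 were counted for a copy, given with the copies below.

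Rpl30, a small protein near the join of the subunits, had the lowest p of the members in adipocytes. There its level was 138, 152 and 142 CPM in controls and 104, 117 and 106 CPM with butyrate (log2 -0.40, SE 0.0749, edgeR adjusted p = 2.8e-05). In the other cell types it fell by 0.28 in macrophages, 0.22 in myotubes and 0.29 in hepatocytes on the log2 scale, without overlap of the libraries. Rpl4, which lines the exit tunnel of the nascent protein, was 740, 726 and 730 CPM in adipocyte controls and 631, 658 and 624 CPM with butyrate (log2 -0.20). It was 866, 876 and 862 CPM in macrophage controls and 789, 765 and 808 CPM with butyrate, a log2 change of -0.14 (edgeR adjusted p = 0.0362) that was 0.08 by totals alone. Rpl13a, a large subunit protein that also acts in silencing of inflammatory mRNAs, was 873, 784 and 753 CPM in hepatocyte controls and 616, 599 and 591 CPM with butyrate (log2 -0.42, SE 0.0802, edgeR adjusted p = 3.73e-05). Rpl13 (log2 -0.37) and Rpl29 (log2 -0.35) had the next lowest p in hepatocytes after Rpl10.

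Among small subunit proteins, Rps4x, encoded on the X chromosome, was 268, 277 and 277 CPM in adipocyte controls and 212, 235 and 218 CPM with butyrate (log2 -0.31, SE 0.0664, edgeR adjusted p = 0.000173). In hepatocytes it was 698, 639 and 645 CPM in controls and 529, 511 and 500.0 CPM with butyrate (log2 -0.36). In myotubes it was 300.5, 278 and 272 CPM in controls and 238, 244 and 276 CPM with butyrate, and here the libraries overlapped although the test was passed (log2 -0.16, edgeR adjusted p = 0.0294). Rps9 changed by similar amounts: log2 -0.26, -0.23, -0.24 and -0.28 in adipocytes, macrophages, myotubes and hepatocytes. Its levels in adipocytes were 330, 311 and 314 CPM in controls and 257, 279 and 262 CPM with butyrate, and in hepatocytes 705, 626 and 612 CPM and 552, 526 and 520 CPM. In macrophages Rps23, a protein of the decoding centre, was 222, 204 and 241 CPM in controls and 186, 155 and 184 CPM with butyrate (log2 -0.35, SE 0.0838, edgeR adjusted p = 0.000552). By totals alone the macrophage values of Rps3a1, Rpl11, Rpl36al, Rpl7l1 and Rps27l turned to between 0.007 and 0.055.

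Rpsa, the small subunit protein also known as the laminin receptor, had the largest count of the members in each control group, with means of 956, 1142, 834 and 2333 CPM in adipocytes, macrophages, myotubes and hepatocytes. In hepatocytes it was 2480, 2286 and 2234 CPM in controls and 1873, 1845 and 1787 CPM with butyrate (log2 -0.35, SE 0.0818, edgeR adjusted p = 0.000455), and it fell in adipocytes too (log2 -0.20). In macrophages (log2 -0.14) and myotubes (log2 -0.09) it did not pass. Rps6, the substrate of the S6 kinases downstream of mTORC1, was 1228, 1124 and 1078 CPM in hepatocyte controls and 953, 958 and 895 CPM with butyrate (log2 -0.29). It fell also in adipocytes (log2 -0.23) and myotubes (log2 -0.18), and missed the threshold in macrophages (log2 -0.15, edgeR adjusted p = 0.0533).

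The stalk proteins Rplp0, Rplp1 and Rplp2 recruit the translation factors that use GTP. Rplp1 fell in all 4 cell types: in adipocytes it was 488, 521 and 520 CPM in controls and 390, 419 and 399 CPM with butyrate (log2 -0.34, SE 0.0867, edgeR adjusted p = 0.0011). Its partner Rplp2 fell in adipocytes (log2 -0.22), and stood at -0.005 in macrophages, -0.06 in myotubes and -0.17 in hepatocytes, none of which passed. Rplp0, which anchors both, fell in macrophages (log2 -0.19) and hepatocytes (log2 -0.20). In myotubes Rplp0 was 786, 784 and 735 CPM in controls and 717, 713 and 884 CPM with butyrate (log2 0.01), the third butyrate library standing above all controls. Macrophage values of Rplp0, Rplp1 and Rplp2 were 0.03, 0.02 and 0.22 by totals alone.

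Rpl11 and Rpl5 form a particle with 5S ribosomal RNA that can bind Mdm2, the ligase of p53. Rpl11 was 447, 414 and 384 CPM in hepatocyte controls and 343, 349 and 334 CPM with butyrate (log2 -0.28), and it fell also in macrophages (log2 -0.17) and myotubes (log2 -0.19). Rps27a is made as a fusion with ubiquitin. It fell in adipocytes, from 176, 182 and 178 CPM to 140, 154 and 145 CPM (log2 -0.29, SE 0.0807, edgeR adjusted p = 0.0028), and stood at -0.01 in macrophages, where the libraries overlapped.

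Ratios of paralogues to their parents were computed for 8 pairs in 8 comparisons. An exact permutation test of 3 against 3 libraries cannot go below p = 0.1, so none could pass and the ratios are a description. Rpl36al fell in all 4 cell types, in macrophages from 71.1, 70.8 and 73.4 CPM to 60.7, 56.8 and 67.8 CPM (log2 -0.22, edgeR adjusted p = 0.00668), while its parent Rpl36a was 118, 111 and 123 CPM and 134, 112 and 129 CPM there (log2 0.09, not passed). The log2 ratio of Rpl36al to Rpl36a in macrophages was -0.73, -0.65 and -0.74 in controls and -1.14, -0.98 and -0.93 with butyrate, without overlap. A ratio of 2 genes of a library does not depend on how libraries are scaled. Rpl7l1, a relative of Rpl7, fell in myotubes from 66, 63.8 and 60.7 CPM to 53.9, 54.9 and 49.96 CPM (log2 -0.26, SE 0.0661, edgeR adjusted p = 0.000923), with a ratio to Rpl7 lower by 0.23. Rpl22l1, whose level is known to be held down by Rpl22, had a log2 ratio to Rpl22 of -2.35, -2.41 and -2.20 in hepatocyte controls and -2.18, -2.12 and -2.08 with butyrate, so that the groups did not overlap. With βOHB it was -2.31, -2.08 and -1.95, with a mean of -2.11 beside -2.32 in controls and -2.13 with butyrate. In myotubes the ratio of Rpl22l1 to Rpl22 went the other way, also without overlap. There it was -3.29, -3.24 and -3.34 in controls and -3.43, -3.35 and -3.59 with butyrate. In adipocytes and macrophages the control and butyrate ratios overlapped. Rps27l, a relative of Rps27 induced by p53, fell in all 4 cell types, in hepatocytes from 127, 122 and 121 CPM to 93.6, 103 and 91.9 CPM (log2 -0.36). Rpl39l, a form of Rpl39 known from testis, had mean control levels of 14.7 CPM in adipocytes, 5.29 in macrophages, 1.46 in myotubes and 0.0209 in hepatocytes, and none of its changes passed. In myotubes its change was 0.23, and without butyrate replicate 3 it was -0.70 and passed. Rps19bp1 was the 1 member raised anywhere: in macrophages it was 13.8, 14.4 and 16.3 CPM in controls and 18.4, 16.7 and 18.1 CPM with butyrate (log2 0.26, SE 0.0799, edgeR adjusted p = 0.00583).

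Ribosomal protein mRNAs have been copied back into the genome many times, and reads of a parent and its copy cannot always be told apart. Of the 86 genes, 69 had another gene in the table that held at least 50% of the 31-base words of their coding part, 268 such copies in all. For most members this was of little weight, with a median of 0.1% of the reads of member and copies on the copies. It was over 10% for 12 members, and over 50% for 5: Rps27 (99%), Rpl12 (95.4%), Rpl5 (94.3%), Rpl10 (81.6%) and Rpl27a (66.4%). The start of Rps27 is shown with that of its copy Rps27rt, itself one of the 86 genes, because nearly all their reads were counted for copies (opening run of C and T in capitals, as above).
Rps27 (chr3:90213619-90213648, minus strand): CCTTTCCggcggtgacgacctccctacgag
Rps27rt (chr9:114982710-114982739, minus strand): CTTTCCggcggtgacgacctccctacgaga

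Adding the counts of the copies to their parents left the counts of fallen members close to those above: 40, 28, 37 and 58 of 83 in adipocytes, macrophages, myotubes and hepatocytes, with 0, 1, 0 and 0 that rose (of all 15312 genes 30.3%, 33.3%, 33.4% and 32.5% fell, and 30.7%, 31.8%, 33.2% and 31.1% rose). It changed single members. Rpl10 alone gave -0.25, -0.51, -0.51 and -0.52, and with its copies -0.24, -0.23, -0.26 and -0.37. The copy Rpl10-ps3, all of whose coding words match, fell by 0.24, 0.18, 0.21 and 0.33. Rpl5 alone gave -0.33, -0.09, 0.22 and -0.27, and with its copies -0.20, -0.15, -0.03 and -0.16. Rpl12 gave -0.49, 0.09, -0.35 and -0.32 alone, and -0.11, -0.10, -0.15 and -0.32 with its copies. The values of these genes alone are therefore uncertain.

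**Figure D5:**
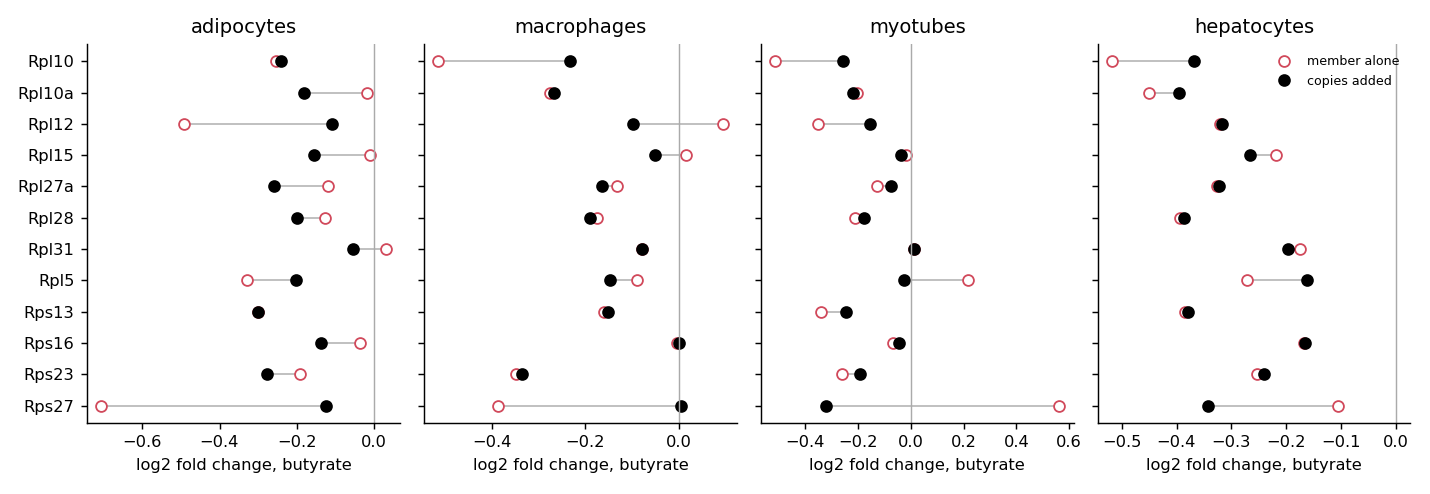
Log2 fold change with butyrate for the 12 members with over 10% of reads on copies, from the counts of the gene alone (open circles) and after adding the counts of its copies (filled circles). The ranges of the horizontal axes differ between panels. Rpl5 in myotubes moves from 0.22 to -0.03 and Rpl10 in macrophages from -0.51 to -0.23.

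The butyrate effect of each cell type was set against the mean of the other 3 in the same model. In hepatocytes 10 members differed, all with a lower value there (46.3% of all genes differed in either direction): Rpl6, Rpl10a, Rpl13, Rpl21, Rpl24, Rpl28, Rpl29, Rpl35, Rpl36a and Rpl41. Rpl41, the smallest of the ribosomal proteins, was 979, 867 and 866 CPM in hepatocyte controls and 725, 705 and 704 CPM with butyrate (log2 -0.35), while its log2 changes in adipocytes, macrophages and myotubes were -0.05, -0.10 and -0.08, and the difference was -0.27 (SE 0.0826, edgeR adjusted p = 0.00806). In macrophages 3 members differed, Rpl12, Rpl36a and Rps19bp1 (39.9% of all genes), in adipocytes Rpl10 and Rpl10a (32.9%), and in myotubes 1, Rpl5 (42%). In these 3 cell types the value was higher than in the others. With copies added, 9 members differed in hepatocytes, 2 in macrophages and 0 in adipocytes and myotubes (46.4%, 39.9%, 33% and 42% of all genes). By totals alone 36 differed in hepatocytes and 20 in macrophages (47.2% and 42.1% of all genes).

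Marker sums moved with treatment in some groups. Those of the labelled type went with butyrate from 17320 to 17500 CPM in control macrophages to 10580 to 11130 CPM, and from 20910 to 25700 CPM in control myotubes to 14070 to 19080 CPM. In adipocytes they went from 7898 to 8588 CPM to 6251 to 7618 CPM, and in hepatocytes from 39460 to 42750 CPM to 45990 to 47840 CPM. The 7 hepatocyte markers summed to 0.308 to 1.36 CPM in control myotubes, where 5 of them were at 0 in every library, to 0.735, 0.622 and 26.3 CPM with βOHB, and to 35.3, 621 and 141 CPM with butyrate. Macrophage markers in myotubes summed to 108 to 277 CPM in controls and 16.3 to 70.3 CPM with butyrate, and with βOHB to 44.1 to 106 CPM. The 3 markers of dividing cells summed to 29.5 to 64.5 CPM in control myotubes, 17.3 to 22.2 CPM with βOHB and 11.2 to 16.3 CPM with butyrate. Markers of dividing cells summed to 1306 to 1342 CPM in control macrophages and 509 to 607 CPM with butyrate, and all 3 were detected. In hepatocytes macrophage markers went from 295 to 341 CPM in controls to 136 to 155 CPM with butyrate, and the 3 endothelial markers from 61 to 68.4 CPM to 19.2 to 22.6 CPM, with 59 to 70.7 CPM with βOHB. In adipocytes macrophage markers summed to 291 to 342 CPM in controls, 319 to 336 CPM with βOHB and at most 277 CPM with butyrate, and endothelial markers to 167 to 192, 193 to 229 and 109 to 128 CPM. Fibroblast markers there summed to 5753 to 6721 CPM in controls, 5890 to 9127 CPM with βOHB and 5435 to 6880 CPM with butyrate. The part of all these marker values in the ribosomal protein values was not tested.

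With βOHB no member passed in any cell type by edgeR's quasi-likelihood test, where 0.00652%, 0%, 2.91% and 0.00652% of all tested genes did in adipocytes, macrophages, myotubes and hepatocytes. At an unadjusted p below 0.05 there were 3 members in adipocytes (Rpl18, Rps19bp1 and Rps27), 1 in macrophages (Rps12), 3 in myotubes (Rpl10, Rps20 and Rps27) and 2 in hepatocytes (Rpl22l1 and Rps29), where 1097, 358, 2104 and 845 of all genes reached that mark. Medians of the members were -0.06, -0.08, -0.02 and -0.007, against 0.002, 0, 0.02 and 0.001 for all genes. In macrophages 78 of 84 members lay below 0, and in adipocytes 70, in myotubes 56 and in hepatocytes 45. The study itself, with a test of gene sets along a ranking of all genes, listed the KEGG ribosome set as lowered by βOHB in myotubes. Such a test asks about a shift of a whole set and not about calls of single genes. The genes of that set need not be those taken here. Libraries of βOHB and control did not overlap, with βOHB below, for 17, 18, 3 and 0 members, where this held for 6.51%, 5.51%, 8.34% and 3.59% of all genes; butyrate libraries lay below all controls for 55, 44, 28 and 67 members, against 33.6%, 37.3%, 32.5% and 35.5%. As an example, Rps9 in adipocytes was 298, 295 and 275 CPM with βOHB, below the 311 to 330 CPM of the controls (log2 -0.14, SE 0.0766, edgeR adjusted p = 0.737). Rps12 in macrophages was 237, 227 and 258 CPM in controls and 208, 214 and 213 CPM with βOHB (log2 -0.19, edgeR adjusted p = 1).

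Both compounds were compared with the same control libraries, so they were also set against each other directly, at the same dose and time, in the 4 cell types. Butyrate libraries were lower than βOHB libraries for 16 members in adipocytes, 7 in macrophages, 28 in myotubes and 63 in hepatocytes, where 29.5%, 32.8%, 32.9% and 33% of all genes were lower. They were higher for 0, 1, 0 and 0 members, where 30%, 31.8%, 33.1% and 30.5% of all genes were higher; the 1 was Rpl36a in macrophages (log2 0.19). Medians of the members were -0.09, -0.06, -0.13 and -0.25. By totals alone 1, 1, 0 and 38 members were lower and 3, 39, 13 and 0 higher (22.8%, 21.5%, 21.8% and 29% of all genes lower, and 36.7%, 43.6%, 44.3% and 34% higher), so that the sign of the median turned in adipocytes, macrophages and myotubes (0.03, 0.17 and 0.07) and stayed in hepatocytes (-0.17). The median of all genes was then 0.09, 0.21, 0.20 and 0.03, so that relative to it the members were lower by either scaling: by -0.09, -0.06, -0.13 and -0.24 with TMM factors, and by -0.07, -0.04, -0.13 and -0.20 with totals alone. As above, a change of scaling could hardly alter this difference.

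In hepatocytes Rps6 was lower with butyrate than with βOHB by a log2 difference of -0.26 (95% interval -0.39 to -0.12, edgeR adjusted p = 0.00172). Rps4x was lower there by a log2 difference of -0.34 (95% interval -0.47 to -0.21, edgeR adjusted p = 4.22e-05). A difference that did not pass left room for a modest one: for Rps4x in macrophages it was -0.10 (95% interval -0.23 to 0.03), and for Rpsa in myotubes -0.06 (95% interval -0.22 to 0.10). For Rpl30, adipocytes gave -0.30 (95% interval -0.45 to -0.15) and macrophages -0.15 (95% interval -0.30 to -0.002, edgeR adjusted p = 0.0832).

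Assembly factors and other TOP mRNAs had lower butyrate medians than the ribosomal proteins in each cell type under TMM scaling. Among 43 factors that assemble ribosomes in the nucleolus and cytoplasm, 35 fell and 2 rose with butyrate in adipocytes, 25 and 7 in macrophages, 31 and 2 in myotubes, and 30 and 4 in hepatocytes, with medians of -0.54, -0.28, -0.42 and -0.38. For this and the following lists, 30.3%, 33.2%, 33.4% and 32.4% of all tested genes fell and 30.7%, 31.9%, 33.1% and 31% rose in the 4 cell types in that order. Among 16 other TOP mRNAs, such as those of translation factors, 10, 8, 9 and 11 fell and 1 rose in each cell type, with medians of -0.33, -0.22, -0.26 and -0.32. The 78 mitochondrial ribosomal proteins were more mixed: 40, 35, 50 and 43 fell and 10, 21, 9 and 13 rose, with medians of -0.20, -0.12, -0.26 and -0.22. Among 14 subunits and factors of RNA polymerase I, which makes ribosomal RNA, 6, 6, 6 and 5 fell and 3, 4, 3 and 3 rose. Of 14 regulators of TOP mRNAs, 8, 8, 6 and 5 fell and 3, 5, 3 and 6 rose. With βOHB 1 TOP mRNA fell and 1 assembly factor rose, both in myotubes, where 2.91% of all tested genes passed, and no other gene of these lists passed.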

How the data were processed

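RNA of 36 libraries was sequenced as paired reads on a BGISEQ-500. The authors quantified reads with Salmon 1.2.1 against GENCODE M25 (GRCm38.p6) and deposited expected counts per gene made with tximport, in which 55.6% of the values above 0 were exactly whole. The methods name a scaling by transcript length and library size at import. Library totals in the table differ, so they were treated as counts not scaled to a common size. Counts were rounded and filtered (more than 1 CPM in at least 6 libraries), and 15340 genes were fitted with edgeR 4.0.16 (R 4.3.3), TMM factors, a model of 12 groups over all 36 libraries and the quasi-likelihood F test, with Benjamini-Hochberg adjustment over all genes and a threshold of 0.05. The study itself used limma. Ratios of paralogues were put through exact two-sided permutation tests, which could not pass with 3 libraries a group.

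Alternatives were library totals alone, RLE and upper quartile scaling, TMM factors without the members, no filter, limma 3.58.1 (voom), DESeq2 1.42.0, each cell type alone, a replicate block, each library left out and, added after the data were seen, counts of copies added to the parent and the direct contrast of both compounds. Levels are CPM with TMM factors. They are not per length and are not compared between genes. The members, the lists and the alternatives were chosen with earlier results of these data known. Named members were the paralogues with their parents, the stalk proteins with Rpsa, Rps6, Rpl5, Rpl11 and Rps27a, up to 3 of lowest p in each direction per butyrate comparison whose groups did not overlap, those of largest and smallest control count, and Rps19bp1; others were named after their values were seen. Some genes these rules take are not reported here by name. Sequences and gene positions came from GENCODE M21 (GRCm38), the annotation at hand. Promoters came from RefSeq. The fits were tested on simulated counts in which few genes changed, in a single comparison. With butyrate most tested genes were called, so the simulation does not check the scaling there.

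Same-numbered libraries of a cell type did not deviate together (correlations from -0.26 to 0.27), so the numbers were not used as pairs. No library matched another of its own group within counting noise, and libraries of different groups were not compared in this way. Depth was 18366289 to 23221473 counts per library, which count reads and not molecules.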

Additional observations from a re-analysis of the deposited data

Results flagged for a closer look

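The butyrate effect in one cell type differed from the mean effect in the other 3 for 16 combinations of member and cell type, by a contrast in the edgeR quasi-likelihood model (adjusted over all genes). These were 2, 3, 1 and 10 of 84 members in adipocytes, macrophages, myotubes and hepatocytes, where 32.9%, 39.9%, 42% and 46.3% of all tested genes differed, and nothing particular to the members is read from these counts. Values are differences of log2 fold changes. In adipocytes Rpl10 was higher by 0.26 (adjusted p = 0.0422) and Rpl10a by 0.29 (adjusted p = 0.0177). In macrophages Rpl12 was higher by 0.48 (adjusted p = 0.0255), Rpl36a by 0.22 (adjusted p = 0.0396) and Rps19bp1 by 0.37 (adjusted p = 0.00173). In myotubes Rpl5 was higher by 0.45 (adjusted p = 0.00269). In hepatocytes the difference was negative for all 10: Rpl10a -0.28, Rpl13 -0.20, Rpl21 -0.22, Rpl24 -0.21, Rpl28 -0.22, Rpl29 -0.24, Rpl35 -0.21, Rpl36a -0.22, Rpl41 -0.27 and Rpl6 -0.18, with adjusted p from 0.00788 to 0.0446.

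Rpl10, Rpl12 and Rpl5 have over 50% of the reads of gene and copies on copies. With the copies added, the difference was 0.05 for Rpl10 in adipocytes (edgeR adjusted p = 0.738), 0.11 for Rpl10a in adipocytes, 0.10 for Rpl12 in macrophages and 0.14 for Rpl5 in myotubes (edgeR adjusted p = 0.111). The test for an outlying library within a group was not run, since each group has 3 libraries.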

How the results depend on the processing

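The median butyrate change of the members stayed below 0 under each alternative in adipocytes, myotubes and hepatocytes; in macrophages it turned to 0.09 by library totals alone. By totals alone the members lowered became 12, 1, 2 and 38 (24.8%, 21.8%, 25.3% and 29.2% of all genes) in adipocytes, macrophages, myotubes and hepatocytes. Those raised became 1, 16 and 3 in the first 3 of these (35.2%, 43.5% and 40.8% of all genes). Medians of the members were -0.07, -0.018 and -0.159 in adipocytes, myotubes and hepatocytes. Members differing from other cell types became 20 in macrophages and 36 in hepatocytes (42.1% and 47.2% of all genes). Members lower with butyrate than with βOHB became 1, 1, 0 and 38 (22.8%, 21.5%, 21.8% and 29% of all genes). Those higher became 3, 39 and 13 (36.7%, 43.6% and 44.3% of all genes). The βOHB median in myotubes became -0.084. Upper quartile scaling gave 4 lowered and 3 raised in macrophages (4162 and 5680 of all genes) with a median of -0.027, 1 raised in myotubes, and -0.178 in hepatocytes. RLE factors, DESeq2 and the 9 libraries of the cell type alone each gave 1 raised in myotubes (4883 to 5329 of all genes under these and upper quartile scaling), and the last a hepatocyte median of -0.19. Without the filter 1 member in adipocytes and 2 in myotubes passed with βOHB, with 192 and 895 of all genes. With copies added 0 members differed from the other cell types in adipocytes and myotubes (33% and 42% of all genes). The cause was not tested.

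With 1 library left out, lowered members ranged from 25 to 30 in adipocytes (27.8% to 28.6% of all genes). They ranged from 8 to 25 in macrophages (29.8% to 31.8%) and 18 to 47 in myotubes (31.1% to 32.9%). In hepatocytes the range was 38 to 70 (30.7% to 31.3%). Raised members ranged from 1 to 2 in macrophages (4559 to 4851 of all genes) and 0 to 1 in myotubes (4759 to 4975). Butyrate medians ranged from -0.174 to -0.134, -0.139 to -0.071, -0.203 to -0.118 and -0.283 to -0.16, and βOHB medians from -0.101 to -0.022, -0.109 to -0.053, -0.056 to 0.002 and -0.083 to 0.06, in the order adipocytes, macrophages, myotubes, hepatocytes.

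Of 2092 values of 35 named members under the alternatives, 1831 kept their side of the threshold (some of those not called changed sign), 217 lost the call, 30 gained one and 14 changed sign with a call on either side. Rpl39l in myotubes reached 0.56 without butyrate replicate 2. Among those were, in macrophages by totals alone, Rpl11 0.055, Rpl22 0.202, Rpl36al 0.007, Rpl4 0.083, Rpl7l1 0.043, Rplp0 0.03, Rplp1 0.024, Rplp2 0.22, Rps27a 0.217, Rps27l 0.024 and Rps3a1 0.027, and in myotubes Rpl39l without butyrate replicate 3 (-0.704) and Rps27 with copies added (-0.322). With the replicate number as a block, 1 member was raised in myotubes (5051 of all genes) and 129 of 131 named values kept their side of the threshold; the numbers do not pair the libraries. Rpl39l in hepatocytes (mean 0.0209 CPM in controls) is too low for a fold at this depth.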

Other observations

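Promoters from RefSeq (250 bases before to 50 after the gene start) matched 66 of the 86 genes. The letters TTCCGG, on either strand, were found in 54.5% of them and in 16.7% of all 27025 promoters, and CTTTCC, on either strand, in 54.5% and 29.3%. TATAAA, on either strand, was found in 10.6% and 15.7%. A run of at least 5 C or T within 5 bases of the start was present in 54.5% and 36.7%. These counts describe letters and not sites.

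Among tested members, the 23 with an annotated pyrimidine start had median butyrate changes (log2) of -0.17, -0.15, -0.17 and -0.23 in adipocytes, macrophages, myotubes and hepatocytes, and the 61 without had -0.16, -0.13, -0.15 and -0.24.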
